A study of Mus musculus with 19 samples.

Results

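Of the 408323 loci that were assembled de novo from the reads of the primary somatosensory cortex (S1) of the mouse, 319842 (78.3%) had transcript models with a single exon and lay wholly inside the span of an Ensembl gene. A locus was counted as gene-internal if every transcript model of it had 1 exon in all 7 sets of models and if its first and last base fell within the listed start and end of at least 1 gene. These loci are 82.4% of the 387995 single-exon loci. The other loci were 62775 single-exon loci between genes, 5378 single-exon loci across the edge of a gene, 18462 spliced loci that touch a gene and 1866 spliced loci between genes.

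A gene is copied as a precursor RNA that holds its introns, and splicing removes them, mostly in the nucleus and often before the copy is finished. Reads from polyadenylated RNA therefore fall mostly on joined exons, and reads that fall inside introns are commonly read as a measure of unspliced or nuclear RNA. An assembler that sees such reads without a read across a splice site can only build a model with 1 exon, and introns also hold genuine short transcripts, repeats and copies of other genes.

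The tissue came from 8 male C57BL/6J mice, which carried no transgene and had no treatment, aged 56 days and belonging to 2 litters of 4. It was cut by hand into 6 strips, A (mostly layers 1 to 3), B (mostly layer 4), C and D (both mostly layer 5), E (mostly layer 6) and F (mostly layer 6b), and the strips overlap neighbouring layers to some extent. RNA of A and of C to F was pooled over the 8 mice, and RNA of B was pooled by litter as B1 and B2, so that only layer 4 had replicates (n = 2). Both ends of fragments from polyadenylated RNA were sequenced after a DNase digestion during extraction. The other 12 samples were not used here. They came from dorsal cortex, which takes in S1 and areas beyond it, and from lateral cortex outside S1.

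The number of mapped fragments, in units of 1e6, was 44.6 in A, the shallowest library, 86.0 in B2, the deepest, and 47.5 to 54.9 in B1 and C to F. A and B2 also stood apart from the rest in the share of gene FPKM (fragments per kilobase of model, scaled to the depth of the library) on the mitochondrial genome, with 21.8% in A and 18.2% in B2 against 5.03% to 9.79%. Among models that rest on a single fragment, only 1 of the 2 reads was mapped for 86.9% in A and 78.2% in B2. This share was 62.5% to 72.2% in B1 and C to E and 50.0% in F. Some reads of F had 75 nt, and a lone read of that length was counted as 2 reads, which can lower its share. The mean insert was 164 nt in A, 239 nt in B1, 193 nt in B2 and 172 to 208 nt in C to F. B1 and B2 differ in litter and in library, which cannot be told apart. All 3 markers of the leptomeninges (Dcn, Col1a1 and Slc6a13) were highest in A, with a summed FPKM of 14.8 there and 1.16 to 2.23 elsewhere, and none was at 0. All 4 neuronal markers were lowest in A, with a summed FPKM of 1093 against 2093 to 2872. For Slc17a7, A was close to B2, at 435 and 439. All 4 oligodendrocyte markers were also lowest in A, with a summed FPKM of 270 against 712 to 11098. The same held for 2 of 4 astrocyte markers and 2 of 3 microglia markers. Of 3 endothelial markers, 1 was lowest and 1 highest in A. Low values in A were thus not particular to neuronal markers. The layer markers followed the dissection, with Cux2 highest in B1 and A, Rorb in B2, Fezf2 in C and Foxp2 in F. The part of these differences in the results on the gene-internal loci was not tested, and in such bulk tissue fewer cells of a type cannot be told apart from less RNA per cell.

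More gene-internal loci were listed in A and B2 than in the other libraries. A listed 202546 of them, and B2 listed 121258. C listed 71424, E listed 62891, B1 listed 59907, D listed 55055 and F listed 53752. A thus exceeded the highest of the other 5 libraries 2.84-fold and F 3.77-fold, and the litters of layer 4 differed 2.02-fold. B2 is the deepest library, but A is the shallowest. When only loci with at least 5 fragments at the depth of A were counted, 90298 remained in A, 45914 in B2 and 20804 in B1, while C to F held 17782 to 24902. The order of A and B2 before the others was the same, and the litters of layer 4 then differed 2.21-fold. B1, C, D, E and F stayed within a factor of 1.40 of each other by this count. Divided by the depth, the number listed gave another order, with 4538 loci per 1e6 mapped fragments in A, 1503 in C and 1410 in B2, and 978 to 1224 in the others, so that B2 was 1.29 times B1.

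**Figure D1:**
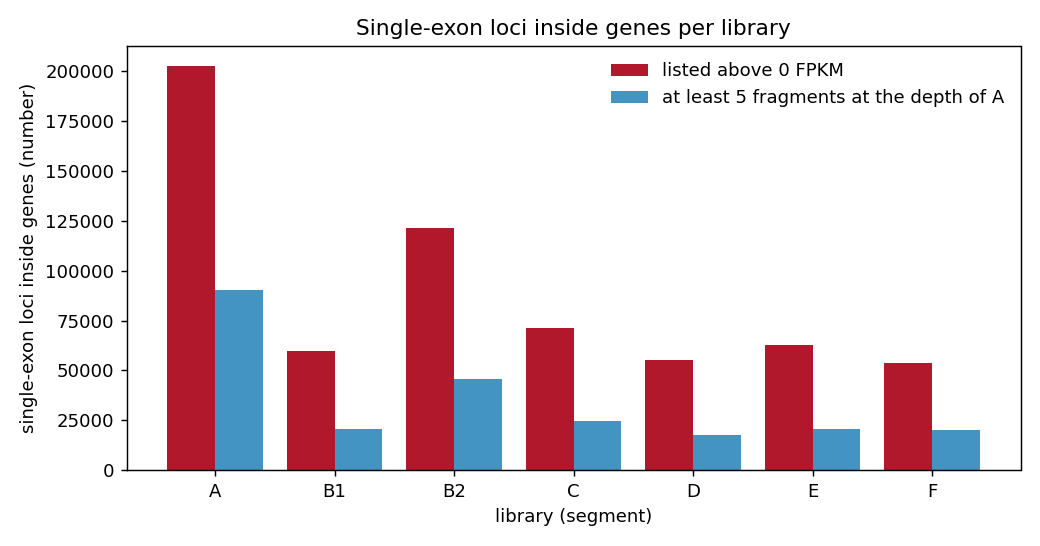
Number of single-exon loci inside genes (linear axis from 0) in each of the 7 libraries, as listed above 0 FPKM and with at least 5 fragments at the depth of A. A (202546 listed, 90298 with 5 fragments) and B2 (121258 and 45914) exceeded the other 5 libraries on both counts.

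Their summed FPKM was 407810 in A and 161197 in B2, followed by 100188 in E, 98357 in C, 91375 in F, 85829 in B1 and 78476 in D. The loci held 44.3% of all de novo FPKM in A and 28.6% in B2. The share was 19.1% in C, 18.5% in B1, 18.2% in E, 16.4% in D and 15.9% in F. FPKM weights short models heavily, so the fragments were also counted. Gene-internal loci took 10.9% of the mapped fragments in A and 5.79% in B2, against 3.63% in B1, 3.58% in C, 3.25% in E, 3.20% in F and 3.06% in D. The 95% Wilson interval of each of these shares is at most 0.0183 percentage points wide, which covers counting error only and no variation between mice.

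Most loci lay away from the exons of spliced models. A total of 296618 (92.7%) overlapped no exon of a spliced de novo transcript on either strand, and they are called off-exon loci here. Of these, 89.0% lay inside the span of a spliced de novo transcript, and the median distance to the nearest spliced exon was 2736 nt. The remaining 23224 loci overlapped a spliced exon. The separation of A and B2 lay mainly in the off-exon loci. They took 8.45% of mapped fragments in A, 3.82% in B2, 1.90% in C, 1.85% in B1, 1.55% in D, 1.43% in E and 1.38% in F. A was 6.10 times F, and B2 was 2.06 times B1.

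Loci on spliced exons differed less. They took 2.48% of mapped fragments in A, 1.97% in B2 and 1.51% to 1.82% in the other 5 libraries, so that B2 was 1.11 times B1. Single-exon loci between genes also set A apart by their share of fragments, but B2 only by their number. Their share was 2.44% in A, 1.32% in both B2 and C, 1.29% in B1, 1.17% in D, 1.07% in E and 0.833% in F. B2 was 1.02 times B1 there, against 1.60 times for all gene-internal loci. By number, B2 listed 33204 of these loci and A 32770, against 17835 to 23389 in the other libraries. With at least 5 fragments at the depth of A, 13504 remained in A and 9916 in B2, which was 1.62 times B1, and 5421 to 7160 in the others. A higher number in A and B2 was thus not particular to gene-internal loci. Single-exon loci across a gene edge took 4.92% of mapped fragments in A, 3.87% in B2 and 3.04% to 3.61% elsewhere. For spliced loci between genes, the shares were 0.653% in A, 0.662% in B2 and 0.482% to 0.555% elsewhere. B2 was 1.07 times B1 for the edge loci and 1.38 times B1 for the spliced loci between genes. A and B2 thus also had the highest shares of fragments in these classes. Spliced loci that touch genes went the other way, with 55.2% of mapped fragments in A, 67.3% in B2 and 73.2% to 80.9% elsewhere. All de novo loci together took 74.1% in A, 78.9% in B2 and 82.2% to 88.5% elsewhere. Part of this difference thus lay in fragments outside any de novo locus.

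**Figure D2:**
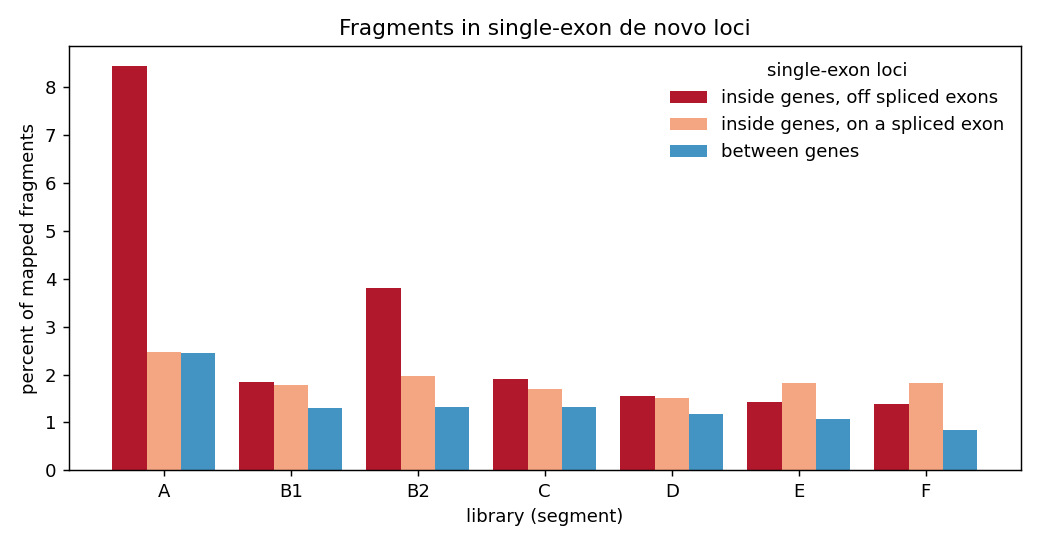
Percent of mapped fragments (linear axis from 0) in 3 classes of single-exon loci in each library. Off-exon loci inside genes stand out in A (8.45%) and B2 (3.82%), while by this measure, though not by number, loci between genes stand out in A (2.44%) only and are equal in B2 and C (1.32%).

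The models were short and thinly covered. Their median span was 163 nt (quartiles 56 and 287 nt), and 23.0% spanned exactly 50 nt, the length of a single read. A listed gene-internal locus rested on a median of 4 fragments in A, 5 in B2, 4 in F, 3 in B1, C and D and 2.89 in E. Single-fragment loci made up 22.1% of those listed in A and 20.1% in B2, against 17.7% to 31.2% in the others. A locus that a library does not list was therefore often below what its depth could detect and is not shown to be absent.

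Few loci were shared by all libraries. Only 12052 (3.77%) were listed in all 7, and 61.4% were listed in 1. A alone listed 104246, B2 alone listed 29547, and the other 5 libraries listed 11114 to 14747 alone. A and B2 together, with no other library, listed 22454 loci, and the next pair, A and C, listed 3722. Of the loci of B2, 63.2% were also listed in A and 31.3% in B1. Of the loci of B1, 65.3% were listed in A and 63.4% in B2. These shares also follow the size of each list.

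Locus by locus, libraries were compared by whether the deposited 95% intervals of the FPKM overlap. These intervals cover the estimate within a library and not the variation between mice, and a library that lists no locus has an interval of 0. Between the litters of layer 4, 47101 of the 143165 gene-internal loci listed in either were higher in B2 (32.9%), where 30.3% of all de novo loci were, and 8412 were higher in B1 (5.88%), where 7.2% of all loci were. The share of gene-internal loci is thus close to that of all loci, of which they make up most. Of loci that are not gene-internal, 24.5% were higher in B2 and 10.2% in B1. Among the 38000 gene-internal loci listed in both litters, 10621 were higher in B2 (28.0%) and 2656 in B1 (6.99%), near the 26.4% and 9.59% of all 74842 de novo loci listed in both.

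Between the ends of the cortex, 88940 of 223759 loci were higher in A than in F (39.7%; all loci 37.5%) and 11620 were higher in F (5.19%; all loci 7.8%). Between C and D, both from layer 5, 17361 of 98112 loci were higher in C (17.7%; all loci 16.5%) and 9173 in D (9.35%; all loci 9.54%). Between the deepest strips, E and F, 15.6% and 15.9% of 90961 loci were higher in each (all loci 15.4% and 15.6%).

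No single gene-internal locus showed a smooth change with depth in the cortex that passed the test. With 1 library for each strip but B, this does not show that no locus changed. In a limma fit of a linear and a quadratic term in the position of the strip to log2(FPKM + 0.1), 0 of the 143576 gene-internal loci tested passed a Benjamini-Hochberg adjusted p of 0.05, as did 0% of the 193859 loci tested in all, and the smallest adjusted p was 0.122. An unadjusted p below 0.05 was reached by 52500 of the gene-internal loci (36.6%; all loci 31.4%), but by 11252 of 91223 when A was left out (12.3%; all loci 10.6%) and by 6546 of 74271 when A and B2 were left out (8.81%; all loci 7.35%). The fall was thus shared by all loci. Leaving out a library did not always lower the share. When only B1 was left out, the share was higher than in the fit of all libraries, for gene-internal loci and for all loci. When only B2 was left out, it was slightly lower for both. These fits leave strip B without a replicate. How far the lack of called loci depends on the difference between B1 and B2 was not tested. With a pseudocount of 1, 2355 loci were called, 2168 of them higher in A (all loci 1.44%) and 187 higher in F (all loci 0.429%).

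Host genes were next described by the loci they hold. The 310291 loci inside exactly 1 gene span fell in 14557 hosts (60.3% of the genes listed), with a median of 6 loci. The 10% of hosts with most loci (1456 genes) held 54.5% of them over 36.4% of the summed host span. Protein-coding hosts held 95.4%. Host genes had a median span of 24.2 kb against 2.62 kb for other genes, and across hosts the number of loci had a Spearman correlation of 0.657 with the span and 0.295 with the mean FPKM (n = 14557 genes, which share the libraries and are not independent).

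Off-exon loci were laid out almost evenly along long hosts. In hosts of at least 100 kb, the first 10% of the gene from its 5′ end held 10.9% of the listed off-exon loci in A and 11.9% to 13.9% in the other libraries, and the last 10% held 9.43% to 11.8%. No stretch of 10% held less than 8.43% in any library. Of the off-exon loci with a stranded host, 70.6% had the strand of the host (n = 281845). Of the loci on spliced exons, 1.82% did (n = 22045). A single-exon model that shares a locus with a spliced model was left out by definition, which can set this second share. The 2 shares are therefore not a like comparison. Single-exon models carry no splice site to orient them, and how the assembler set their strand is not given in the sources used here.

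To set the loci of a gene against its spliced product, the fragments of its off-exon loci were divided by the span of the host in kilobases and scaled to the depth of the library. This density has the unit of an FPKM over the whole gene. It was computed for 5999 hosts with at least 5 off-exon loci, a mean host FPKM of at least 1 and more than 1 exon. The median density was 0.0743 in A, 0.0235 in B2, 0.00696 in C, 0.00490 in B1, 0.00393 in F, 0.00380 in E and 0.00321 in D. A was the highest library in 5445 hosts (90.8%), and B2 exceeded B1 in 5279 (88.0%), while 4303 hosts had a density above 0 in both litters. A host could pass the limit of 5 loci through A and B2, which alone or together list 48.9% of the gene-internal loci, so that these counts are in part set by the choice. When the 5 loci had to be listed in B1, C, D, E or F, 3754 hosts remained, with A highest in 3321 (88.5%) and B2 above B1 in 3493 (93.0%). When the density, too, was computed from those loci only, A was highest in 3053 (81.3%) and B2 above B1 in 3254 (86.7%). The FPKM of the 5999 hosts themselves had another order. Its median ran from 3.74 in A to 6.68 in F, and B2 exceeded B1 in 3098 hosts (51.6%).

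As a percentage of the FPKM of the host, the median density was 1.82% in A, 0.452% in B2, 0.133% in C, 0.108% in B1, 0.0683% in E, 0.0652% in F and 0.0602% in D. In the hosts with loci in both litters of layer 4, the percentage was a median of 2.77-fold higher in B2 than in B1 (4301 hosts). Over hosts, the densities of A ranked most like those of B2 (Spearman correlation 0.803, n = 5999), and those of B1 ranked most like those of C (0.770). The correlation of B1 with B2 was 0.694, and that of A with F was 0.318. The hosts share each library and its depth, so these are descriptions. The density was 0 in 0.617% of the hosts in A, 7.22% in B2, 27.1% in B1 and 23.3% to 32.0% in C to F. Such ties affect the ranks. Hosts could also pass the limit of 5 loci through A and B2. The correlations were not repeated on the 3754 hosts chosen without these libraries.

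**Figure D3:**
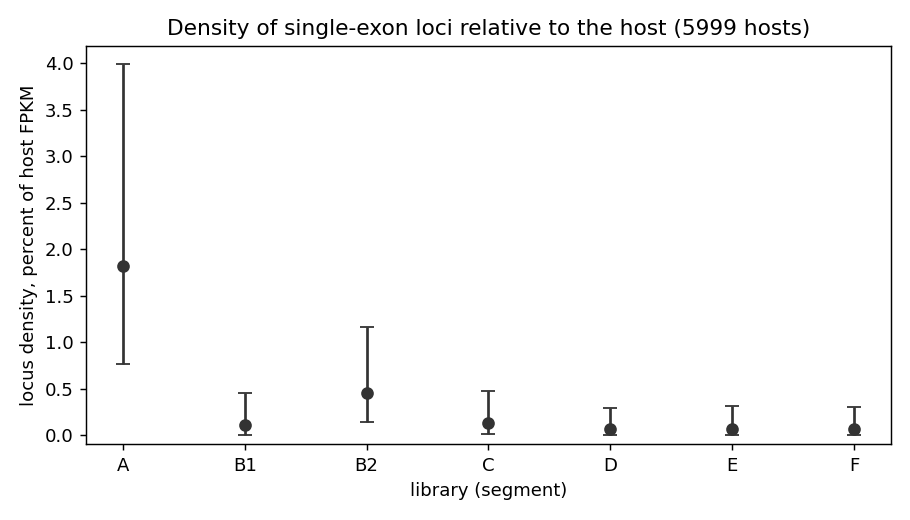
Density of off-exon loci as a percent of the FPKM of the host gene in each library (linear axis), with points at the median and bars from the lower to the upper quartile over 5999 hosts. The median was 1.82% in A and 0.452% in B2 and 0.0602% to 0.133% in the other 5 libraries.

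The density of the loci was also compared with the layer pattern of the host itself, over the same 5999 hosts. As these could pass the limit of 5 loci through A and B2, denser loci in A and B2 were favoured in advance. This comparison was not repeated on the 3754 hosts chosen without these libraries. In A against F, the loci were denser in A in most hosts of each kind. This held for 92.0% of the 327 hosts at least 2-fold higher in A, for 95.3% of the 2589 hosts at least 2-fold higher in F and for 95.5% of the 957 hosts within 1.25-fold. Likewise, B2 had the denser loci in 83.1% of the 130 hosts at least 2-fold higher in B2 and in 85.2% of the 61 hosts at least 2-fold higher in B1. Against F, B2 had the denser loci in 90.4% of the 219 hosts higher in B2 and in 78.4% of the 795 hosts higher in F. B2 thus had the denser loci in most hosts of both kinds, though more often where the host was higher in B2. By this share, it was the only 1 of the 5 pairs with A or B2 that differed in the direction of the host. The median log2 ratio of the densities, over hosts with loci in both libraries, differed in the direction of the host in more of these pairs. In A against F it was 3.06 where the host was higher in A and 2.96 where it was higher in F. In B2 against F it was 2.94 where the host was higher in B2 and 1.13 where it was higher in F. In A against B2 it was 1.65 and 1.30, also in the direction of the host. A against B1 (2.43 and 2.90) and B2 against B1 (1.00 and 1.64) went the other way.

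The other 5 libraries were compared in the same way. Of the 61 hosts at least 2-fold higher in E than in F, 67.2% had denser loci in E and 27.9% in F. Of the 227 hosts at least 2-fold higher in F, 29.1% had denser loci in E and 49.3% in F, and the remainder had no off-exon locus listed in either. Hosts within 1.25-fold were nearly even, with 39.9% and 36.7% of 3935. Between C and F, the share with denser loci in C was 66.5% of the 209 hosts at least 2-fold higher in C, 50.7% of the 485 at least 2-fold higher in F and 55.4% of the 3210 within 1.25-fold. For each of the 10 pairs of these 5 libraries, the share of hosts with denser loci in the upper strip was compared. In 9 of the 10 pairs, it was larger in hosts higher in the upper strip than in hosts higher in the lower strip. The exception was D against E. Loci were denser in D in 48.0% of the 50 hosts higher in D and in 51.7% of the 60 hosts higher in E. They were denser in E in 38.0% and 40.0% of these hosts, which went in the direction of the host. The difference between these pairs and those with A or B2 was not tested.

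The 12 hosts with most loci were long genes. Lingo2, a leucine-rich repeat protein of the neuronal membrane (chr4:35653901-36898777, mm9), held 1846 loci. Lrp1b, a large receptor of the low-density lipoprotein receptor family (chr2:40450768-42509118), held 973, and Cntn4, a contactin of axons (chr6:105627739-106649304), held 862. Csmd3, Csmd1 and Csmd2, transmembrane proteins with CUB and sushi domains, held 772, 602 and 571. Vps13b, which acts at the Golgi apparatus, held 728, and Ptprd, a receptor phosphatase that organizes synapses, held 640. Cntnap5a, of the contactin-associated family, held 580, Grm7, a metabotropic glutamate receptor, held 565, Lrrc7, a postsynaptic scaffold protein, held 532, and Dmd, dystrophin, held 520. Together they held 9191 loci, 2.96% of those in a single host, over spans of 479 to 2271 kb.

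All 12 had their highest density in A and their second highest in B2, which the choice of hosts by loci pooled over all libraries favours, and the ratio of B2 to B1 ran from 1.83 in Csmd3 to 4.24 in Grm7. The host FPKM of B2 was between 0.645 and 1.58 times that of B1. For Lingo2 the density was 0.396 in A, 0.0931 in B1 and 0.226 in B2, 0.0508 in C and 0.0149 in D, and 0.00753 in E and 0.00450 in F. The FPKM of Lingo2 itself was 7.33, 9.90, 11.1, 6.39, 4.69, 3.00 and 1.78 in the same order, so from C to F both were lower in each deeper strip. Lrp1b had a rising host FPKM, from 1.81 in A to 8.05 in F, and its density was 0.0467 in A, 0.0182 in B1 and 0.0406 in B2, 0.0182 in C and 0.0153 in D, and 0.0123 in E and 0.0221 in F. Among the 5 libraries below A and B2 the highest density was in F, as was the highest host FPKM. For Grm7 the density was 0.313 in A, 0.0486 in B1 and 0.206 in B2, 0.0362 in C and 0.00418 in D, and 0.00646 in E and 0.00942 in F, although the FPKM of the gene was lowest in A, at 3.99 against 9.24 to 15.8.

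**Figure D4:**
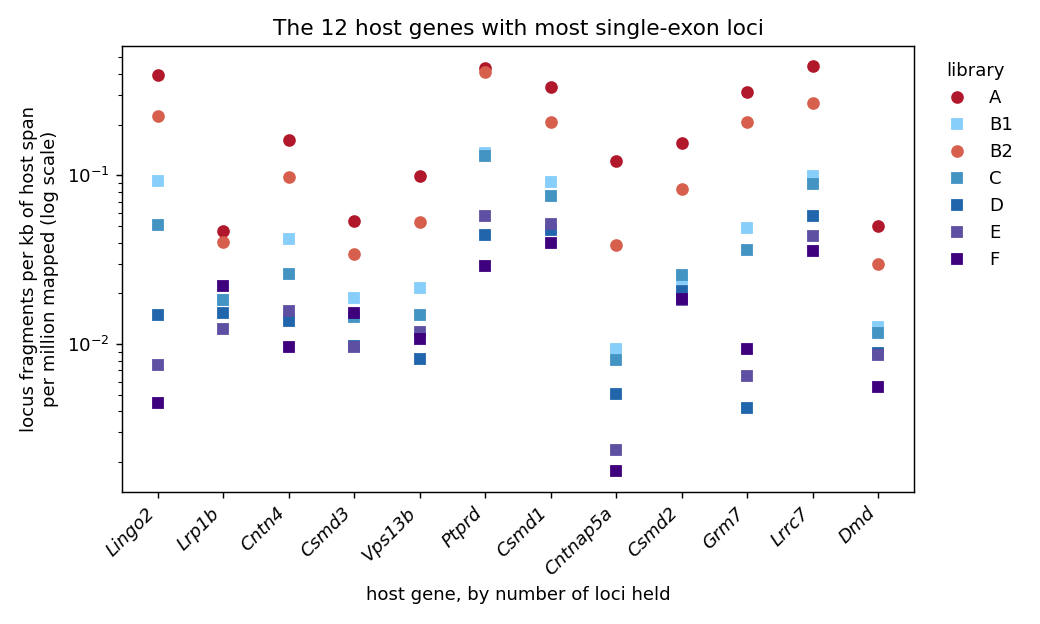
Density of off-exon loci over the span of the host (fragments per kilobase of host, scaled to depth as an FPKM, log axis) for the 12 host genes with most loci, with 1 point per library. A is the highest and B2 the second highest point in each of the 12.

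Ranking by loci per 100 kb of host gave other genes, since the number follows the span. Among hosts of at least 100 kb, Pibf1 (268 loci per 100 kb), Mllt10 (261), Ccdc57 (211), Zfp608 (209) and Elp4 (206) led, and 0 of the first 12 were shared with the ranking by number. When loci had to be listed in at least 2 libraries, 8 of the 12 hosts were shared with the first ranking, and 8 were shared when only loci listed in B1, C, D, E or F were counted. In all 12 hosts of the last ranking, A and B2 still had higher densities than the other 5 libraries, also when only those loci were counted.

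Gene groups of the cortex were compared by the same density. The 46 genes of synaptic adhesion and scaffolding, with a median span of 721 kb, held 7623 loci, and 44 of them were hosts. Over the 38 that met the limits above, the median density was 0.146 in A, 0.0798 in B2, 0.0164 in B1 and 0.00692 to 0.0167 in C to F. A was highest in 33 of 38 and B2 exceeded B1 in 36, against 90.8% and 88.0% of all 5999 hosts. The 40 genes of ion channels and transmitter receptors that were found of 41 held 4008 loci in 38 hosts. Their median density was 0.199 in A, 0.0778 in B2, 0.0207 in B1 and 0.00392 to 0.0170 in C to F, with A highest in 35 of the 35 kept hosts and B2 above B1 in 34.

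The 30 genes for RNA-binding and splicing proteins held 717 loci. Over the 16 kept, the median density was 0.213 in A, 0.0809 in B2, 0.0233 in B1 and 0.0115 to 0.0258 in C to F. A was highest in 14 of them, and B2 exceeded B1 in 16. Celf2, a regulator of splicing and RNA stability, had a density of 0.960 in A, 0.263 in B1 and 0.557 in B2, 0.207 in C and 0.125 in D, and 0.107 in E and 0.0911 in F, and its own FPKM was between 50.8 in B1 and 75.0 in E. A and B2 led for the loci, and E and B2 led for the gene. Rbfox1, a neuronal splicing factor, had a density of 0.941 in A, 0.170 in B1 and 0.413 in B2, against 0.126 to 0.207 in C to F. Other genes of this list were highest in E. The density was 0.302 in E and 0.171 in A for Srsf11, and 0.172 and 0.0767 for Son. For Ddx5, with only 4 loci, it was 0.870 and 0.351.

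The lists of glial genes held fewer loci in all. The 12 oligodendrocyte genes held 201 loci, of which 140 were in St18, a transcription factor gene, and the 12 astrocyte genes held 291, of which 155 were in Npas3, another transcription factor gene. The median spans of the lists were 20.6 kb and 51.5 kb. Per 100 kb of span, the oligodendrocyte list held 24.6 loci and the astrocyte list 9.71, beside 21.9 for synaptic adhesion and scaffolding, 21.8 for channels and receptors and 18.7 for RNA-binding proteins, and these differences were not tested. St18 departed from the general order. Its density was 0.0632 in F, 0.0234 in E, 0.0158 in C, 0.0157 in D, 0.0146 in B2, 0.0109 in A and 0.00656 in B1, and its FPKM was 7.86 in F, 1.92 in E, 1.30 in D, 0.784 in B2, 0.773 in C, 0.551 in A and 0.234 in B1. F was the highest library for both, and B2 exceeded B1 for both. Of the 4 oligodendrocyte genes that met the limits above, A had the highest density in 2, and B2 exceeded B1 in 4. The 2 were Mog and Ugt8a, at 0.0333 and 0.0227 in A. Mbp, which had only 4 off-exon loci and so missed the limits, was also highest in A, at 0.00420. The density of Mog and Mbp was 0 and 7.31e-05 in F, where the FPKM of both genes was highest. Aspa and Cnp, also of this list, were not highest in A. Aspa was highest in D, at 0.0124 against 0.0103 in A. Cnp was highest in F, at 0.0465 against 0.0253 in A, and its FPKM was also highest in F, at 629. Slc1a3, the glutamate transporter of astrocytes, had a density of 0.366 in A and 0.0218 in B2 and at most 0.00380 elsewhere, while its FPKM ran from 59.8 to 83.9. Among 8 long noncoding RNAs that are retained in the nucleus, 2 were found among the listed genes, Meg3 with 1 locus and Snhg11 with 3. The FPKM of Meg3 itself was 762 in A and 390 in B2 and 123 to 223 elsewhere, and that of Snhg11 was 157 in A and 116 in B2 and 48.7 to 74.3 elsewhere.

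Among the 5 layer markers, Cux2 and Rorb held the most loci. Cux2, a homeobox gene of the upper layers with 45 loci, had a density of 0.331 in A, 0.0323 in B1 and 0.103 in B2, 0.00903 in C and 0.00351 in D, and 0.00244 in E and 0.00675 in F. The FPKM of Cux2 was 37.9 in A, 43.5 in B1, 28.6 in B2 and 2.44 to 9.17 in C to F. Rorb, a nuclear receptor of layer 4 with 41 loci, had a density of 0.0298 in A, 0.0343 in B1 and 0.124 in B2, 0.0447 in C and 0.00879 in D, and 0.0182 in E and 0.0314 in F. For Rorb, A was thus below both litters of layer 4, as was its FPKM (5.98 in A, 17.8 in B1 and 22.1 in B2). Tbr1, a transcription factor of the deep layers that has a short gene, held 0 loci.

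The loci with the highest FPKM behaved unlike the rest. Off-exon loci with a mean between 0.1 and 1 FPKM (107898 loci) took 3.95 times as large a share of the mapped fragments in B2 as in B1, and those between 1 and 10 FPKM (15489 loci) took 2.65 times as large a share. For the 618 loci between 10 and 100 FPKM the ratio was 1.39, and for the 15 loci at 100 FPKM or more it was 0.412. Those 15 loci took 0.372% of mapped fragments in A, 0.380% in B1 and 0.157% in B2, 0.343% in C and 0.388% in D, and 0.253% in E and 0.175% in F. The last ratio pools fragments and is set by few loci. Of the 15 loci, 6 were higher in B2 than in B1, and 1 locus inside Cdk8 alone took 0.142% in B1 and 0.0420% in B2. The levels chose these groups of loci, so the ratios are a description.

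Values of 5 of the highest off-exon loci follow. A locus inside Cdk8, a kinase of the Mediator complex (chr5:147072307-147073229), reached FPKM values of 2081 in A, 2317 in B1 and 683 in B2, 1971 in C and 2243 in D, and 1485 in E and 730 in F. It was listed at 2 places, whose FPKM were summed. The others were a locus inside Camk1d, a calmodulin-dependent kinase (chr2:5300083-5300424), with an FPKM of 414 in B2 to 1403 in C, a locus inside Il31ra, an interleukin receptor (chr13:113368369-113368558), with 283 in B2 to 1795 in A, a locus inside Jarid2, a cofactor of Polycomb proteins (chr13:44964939-44965394), with 311 in B2 to 1234 in A, and a locus inside Il1rapl1, a synaptic adhesion protein (chrX:84483602-84483806), with 107 in F to 1100 in B1.

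All 5 were higher in B1 than in B2, by 1.72-fold (Jarid2) to 9.21-fold (Il1rapl1), and the 95% intervals of the litters did not overlap for any. Il31ra itself was listed at 0 FPKM in 5 libraries, at 0.00500 in B1 and at 0.00634 in B2. Among loci on spliced exons, the highest was on an exon of Mbp, a myelin protein gene, on the opposite strand. It was listed at 0 in A and had an FPKM of 97.4 in B1, 124 in B2, 247 in C and 441 in D, and 659 in E and 2339 in F. It increased in the same order as Mbp, from 172 in A to 6954 in F. Whether reads of near-identical copies elsewhere in the genome map to these loci was not tested.

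**Figure D5:**
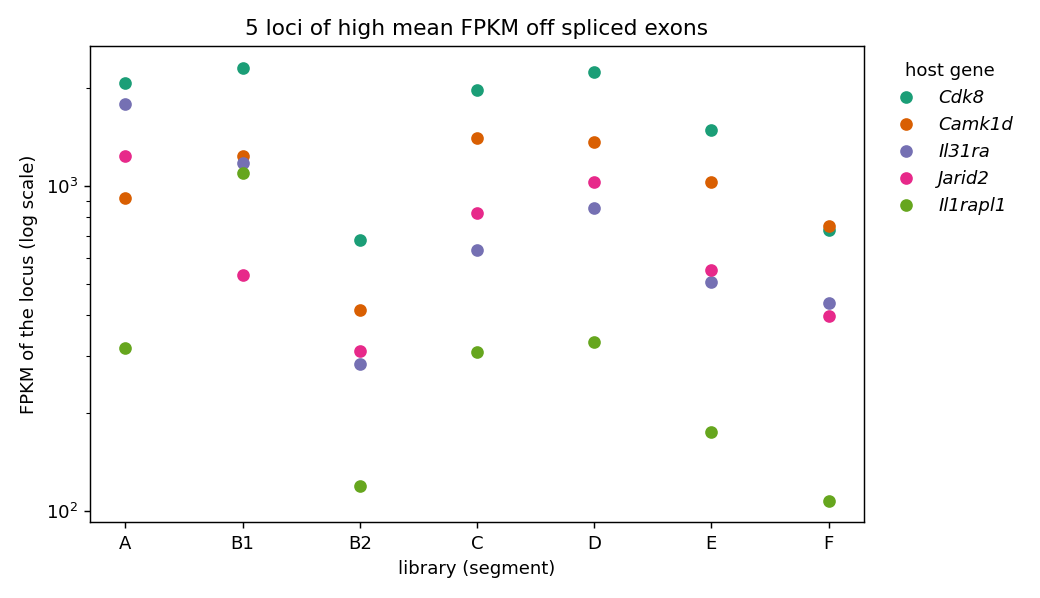
FPKM (log axis) of 5 off-exon loci of high mean FPKM in each library, named by the gene they lie in. B2 is the lowest or second lowest library for each, and B1 lies above B2 for all 5.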

How the data were processed

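RNA of 7 S1 libraries from mice aged 56 days was analysed, with the groups taken from the sample labels. Per the study's methods and the submitters' processing notes, the authors mapped reads of 50 nt (some of 75 nt in F) to mm9 with TopHat 1.0.13 and built and quantified de novo models and Ensembl release 57 genes with Cufflinks 0.8.3. The deposited values are FPKM, fragments per kilobase of model scaled to the mapped fragments, with the bounds of a 95% interval. The deposited coverage is the read depth of a model and a signal not normalized for depth. It was used only to count the mapped reads of models with 1 fragment.

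Models had the same exons in all 7 sets. FPKM of a locus listed at several places in a library (2.50% of gene-internal loci) were summed and the widths of their intervals combined in quadrature. Loci without an entry were set to 0. For a model with 1 fragment the interval reaches 2 times its FPKM above the value, and its FPKM times its length then gives the depth, from which mapped fragments per library and fragments per locus were computed. Of single-transcript single-exon loci, 74.3% to 84.6% came out at whole fragments within 2%. Loci with many fragments meet this limit in any case, and models with 1 fragment set the depth, so this is a weak check. Intervals and floors cover counting error only, without molecular identifiers. Symbols, biotypes, strands and exon numbers were matched by identifier to GENCODE M21 (22021 of 24130 genes had a symbol).

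The trend was fitted with limma 3.58.1 in R 4.3.3 to log2(FPKM + 0.1) of loci with a mean of at least 0.1 FPKM, with both litters of B at the same position. The fold change on this scale understates that of low loci. The fit was also run on simulated normal values with the same spread for every locus. Of the gene-internal loci, 61.4% were listed in 1 library only, which such values do not mimic. The simulation therefore does not give the power of the fit for these loci. A and B2 were set apart by earlier results of these data, so they were described and not tested as a group. The members, gene lists and limits were chosen with earlier results of these data known. The sums, counts and ratios came from pandas 2.3.3 in Python 3.11.15. Hosts named are the 12 with most loci, the 6 with the largest summed FPKM of at least 5 loci and lists of genes. Loci named are from the 6 of highest mean FPKM, off spliced exons and in all. 1 of these hosts and its loci are not reported here. Other list members were named after their values were seen.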

Additional observations from a re-analysis of the deposited data

How the results depend on the processing

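Counts and ratios were taken as kept when an alternative left them within 1.5 times their value. All 81 alternative ratios (A to F, B2 to B1 and A to the mean of layer 4, for the number of loci, their share of FPKM and their FPKM relative to the host) stayed above 1, between 1.55 and 28.2. A and B2 were known as the high libraries beforehand, and the alternatives use the same loci or parts of them. Ratios above 1 were thus favoured in advance. The ratio of A to F in the share of FPKM moved from 2.78 to 5.40 for off-exon loci. With the summed FPKM in place of the share, the ratio was 4.46 for A to F and 3.30 for A to the mean of layer 4, and with libraries also rescaled by the median of ratios over genes it was 6.01 and 3.64. Relative to the host, the median of off-exon loci gave 28.2 for A to F (10.5 for all gene-internal loci) and 4.18 for B2 to B1 (2.43). With only one litter of layer 4, A to layer 4 ran from 1.67 without B1 to 3.38 without B2 for the number listed (2.24 with both), from 1.55 to 2.40 for the share of FPKM (1.88) and from 3.76 to 9.15 relative to the host (5.33), so the choice of litter decided its size. Intervals widened 2 times left 24710 loci higher in B2 than in B1 (47101 as deposited) and 6257 lower, and 43358 higher in A than in F (88940) and 7863 lower. An upper bound of 3 fragments for loci that a library does not list, chosen after seeing the data, left 31596 and 64185. Choosing hosts by loci of B1, C, D, E or F, also added after seeing the data, gave 9.13 for A to F and 2.27 for B2 to B1 relative to the host. The trend called 0 loci in all fits but that with a pseudocount of 1 (2355), also without each of A, B1 and B2 in turn, where a lone strip is assumed to vary like the others. Ranking hosts per 100 kb shared 0 of the 12 hosts with the ranking by number. The cause of these moves was not tested. The de novo tables listed no locus on the mitochondrial genome, so leaving such loci out changed no value. The 81 ratios include these unchanged ones. No paired analysis was possible because only layer 4 had replicates, so the strips compared share fewer than 2 replicate numbers.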
